A study of Mus musculus with 8 samples.

Results

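Voltage-gated sodium channel subunits and connexins carry the electrical impulse through heart muscle, and 8 of their genes were followed here in HVCN1 null and WT mouse hearts. The genes were taken by name: the sodium channel alpha subunits Scn4a and Scn10a, the sodium channel beta subunits Scn2b, Scn3b and Scn4b, and the connexins Gja1, Gja5 and Gjc1. All 8 were found, by Ensembl identifier without its version, among the 39056 genes of the deposited count table, and all 8 were among the 14796 genes with enough counts to be tested. RNA came from heart samples of male mice on a C57BL/6 background, 3 months old, 4 of them null for the voltage-gated proton channel gene HVCN1 (called Hv1 null in the labels) and 4 WT. Each heart gave 1 poly-A selected library. Hearts 1 to 4 are HVCN1 null and hearts 5 to 8 are WT, as numbered in the labels. No litter, batch or pairing is given, nor whether the atria were left on.

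In working heart muscle, sodium channels open first when a cell is depolarised and produce the fast upstroke of the action potential. An alpha subunit forms the pore, and beta subunits set how the pore opens, closes and reaches the membrane. Connexins form the gap junctions through which the current passes into the next cell. GJA1 (connexin 43) is the main connexin of ventricular muscle, GJA5 (connexin 40) that of atrial muscle, the fast conduction system and arterial endothelium, and GJC1 (connexin 45) is best known from the sinus and atrioventricular nodes. SCN4A is the pore of skeletal muscle and SCN10A that of sensory neurons, and both genes are also known from heart.

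The hearts were checked before the genes were read. Hvcn1 summed to 16 counts in HVCN1 null and 318 in WT hearts, with a log2 fold change of -4.20 ± 0.38 (SE, edgeR's quasi-likelihood test, Benjamini-Hochberg adjusted p = 3.63e-04, n = 4 and 4). Total counts ran from 25851255 to 38874640 per heart. Summed ventricular markers were at 8797 to 13083 CPM (read counts divided by the library size and set to a common scale, on library sizes scaled by the TMM method) in HVCN1 null and 7417 to 13738 in WT hearts. The summed level of 13 atrial markers was far less even. It was 515, 4997, 4009 and 538 CPM in HVCN1 null hearts 1 to 4 and 3574, 306, 9063 and 297 CPM in WT hearts 5 to 8. Myl7, the atrial myosin light chain, was at 17.0, 632, 609 and 33.6 CPM and at 578, 0.618, 1185 and 0.169 CPM in the same hearts. Hearts 2, 3, 5 and 7 thus held much more atrial marker RNA than hearts 1, 4, 6 and 8, with 2 hearts of each genotype on either side. Of the 13 atrial markers 12 were tested, 0 passed edgeR's test between genotypes, and 1, the potassium channel gene Kcna5, stood at an unadjusted p under 0.05 and was called by DESeq2. In such bulk RNA, fewer cells of a type and less RNA per cell cannot be told apart. Results that move with the atrial markers are given within the 4 hearts of each side as well. Neither side was even: on the low side both HVCN1 null hearts, and on the high side WT heart 7, had more atrial marker RNA than the rest, so a difference within a side is not free of it.

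Scn4a was the 1 gene of the 8 that passed the test, and it was lower in HVCN1 null hearts. Over all 14796 genes tested, 1.14% passed at an adjusted p under 0.05. Of all genes, 0.399% passed lower and 0.743% passed higher in HVCN1 null hearts, beside 1 and 0 of the 8. The other sodium channel genes and all 3 connexins did not pass. Of the 8, 4 were higher and 4 lower, with a median log2 fold change of 0.01 beside -0.01 for all genes tested. At an unadjusted p under 0.05 stood 2 of the 8, Scn4a and Gja1, where 11.0% of all genes stood. The HVCN1 null and WT hearts did not overlap in 2 of the 8 genes and in 7.06% of all genes tested.

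**Figure D1:**
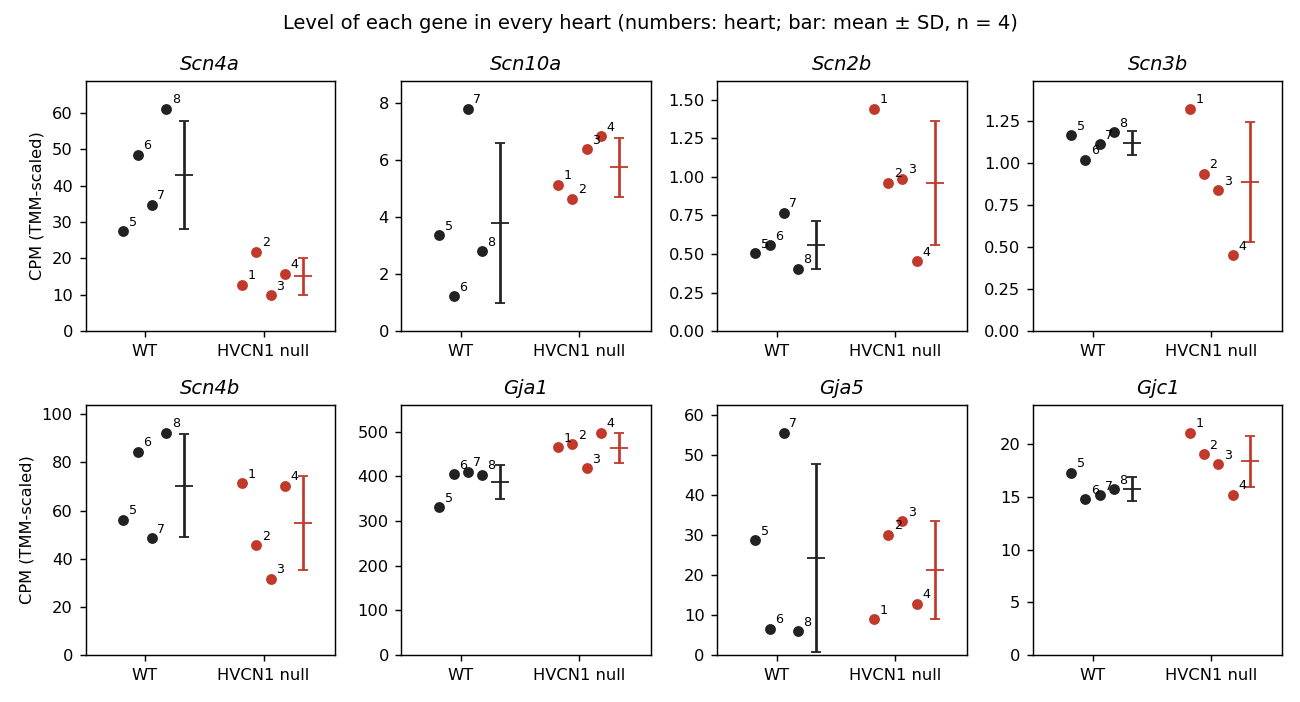
Level of each of the 8 genes in every heart, in CPM on TMM-scaled library sizes, with a linear axis from 0 in each panel; numbered points are hearts (WT 5 to 8, HVCN1 null 1 to 4) and the bar beside them is the mean ± SD of 4 hearts. The HVCN1 null hearts lie below all WT hearts for Scn4a (at most 21.8 against at least 27.5 CPM) and above all WT hearts for Gja1 (at least 418 against at most 410 CPM), and the groups overlap for the other 6 genes.

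Scn4a (ENSMUSG00000001027, chromosome 11, 106318592 to 106353288 on the minus strand of GRCm38) was at 12.8, 21.8, 9.84 and 15.8 CPM in HVCN1 null hearts 1 to 4. In WT hearts 5 to 8 it was at 27.5, 48.5, 34.7 and 61.1 CPM. All 4 HVCN1 null hearts were below the lowest WT heart, a separation in this direction that 3.45% of all tested genes showed. The mean was 15.1 ± 5.11 CPM in HVCN1 null and 42.9 ± 14.9 CPM in WT hearts (SD, n = 4 and 4), which rest on 2058 and 5777 counts. The log2 fold change was -1.51 ± 0.28 (SE, edgeR's quasi-likelihood test, Benjamini-Hochberg adjusted p = 0.0343), and the two-sided exact permutation test gave p = 0.0286, the smallest that 4 against 4 hearts can give.

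The call on Scn4a rested on several hearts. Without HVCN1 null heart 1, 3 or 4 or WT heart 6 or 8, edgeR's adjusted p was 0.118, 0.0876, 0.0719, 0.105 and 0.0778, while the log2 fold change with any 1 heart left out ran from -1.74 to -1.28. Within the WT group, hearts 6 and 8, with the low atrial markers, had the most Scn4a. In the HVCN1 null group the order did not follow these markers. Hearts 2 and 3, with high atrial markers, had the most and the least, at 21.8 and 9.84 CPM. Among the 4 hearts with low atrial markers the log2 fold change was -1.92 (edgeR adjusted p = 0.00605, 2 against 2 hearts), and among the 4 with high atrial markers it was -0.98 (edgeR adjusted p = 0.81, 2 against 2 hearts). The difference between these values was not tested. With the atrial marker score as a covariate over all 8 hearts it was -1.39 (edgeR adjusted p = 0.0372).

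Since Scn4a is the sodium channel of skeletal muscle, the skeletal muscle markers were read beside it. Their summed level was 31.6 to 51.2 CPM in HVCN1 null and 45.6 to 62.3 CPM in WT hearts, so the groups overlapped. Of the 14 markers, 8 had enough counts to be tested, 7 of these were lower in HVCN1 null hearts, 0 passed edgeR's test and 1 stood at an unadjusted p under 0.05. DESeq2 and limma's voom called 0 of them as well. Their median log2 fold change was -0.64. The defining fast myosins Myh1, Myh2 and Myh4 and the factor Myod1 were under 0.3 CPM in all 8 hearts. Casq1, the calsequestrin of skeletal muscle, was at 1.86, 8.05, 2.89 and 1.33 CPM in HVCN1 null hearts and at 11.9, 3.31, 6.98 and 6.21 CPM in WT hearts. The part of these markers in the Scn4a difference was not tested.

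The sequence around the RefSeq start of Scn4a is shown because it is the gene that passed the test. The window runs from 250 bases before to 50 bases after the start (RefSeq, GRCm38.p6, chr11:106349341-106349640, minus strand) and lies inside the GENCODE gene, whose own first exon begins further upstream.
Scn4a: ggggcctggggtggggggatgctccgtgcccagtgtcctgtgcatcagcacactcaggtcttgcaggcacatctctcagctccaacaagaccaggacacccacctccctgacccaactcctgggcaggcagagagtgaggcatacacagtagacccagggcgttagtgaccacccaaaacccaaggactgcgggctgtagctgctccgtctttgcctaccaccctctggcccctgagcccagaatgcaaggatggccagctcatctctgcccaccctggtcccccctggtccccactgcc
Motifs that cardiac or general transcription factors are known to bind were searched on both strands. The window held no E-box (CANNTG) and no core of the T-box factors (AGGTGT). It likewise held no core of the NKX2 factors (AAGTGG), no GATA factor site (AGATAA) and no site of the AP-1 factors (TGAGTCA), so that no letter is in capitals. Of 32851 RefSeq windows of this length, 72.3% held at least 1 E-box. A window with no match says only that these letters are not in it.

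Scn10a (ENSMUSG00000034533, chromosome 9, 119608456 to 119719322, minus strand) had its level spread mainly among the WT hearts. It was at 5.13, 4.65, 6.38 and 6.84 CPM in HVCN1 null hearts and at 3.37, 1.24, 7.80 and 2.80 CPM in WT hearts. WT hearts 5, 6 and 8 were below all HVCN1 null hearts, while WT heart 7, with the highest atrial markers, was above them all. The means were 5.75 ± 1.03 and 3.80 ± 2.82 CPM (SD, n = 4 and 4; two-sided exact permutation p = 0.229). The log2 fold change was 0.59 ± 0.43 (SE, edgeR adjusted p = 0.735), and the groups overlapped. The value turned on single WT hearts. Without WT heart 7 it was 1.22 (edgeR adjusted p = 0.125; difference in mean CPM 3.28 in place of 1.95), and without WT heart 6 it was 0.30 (edgeR adjusted p = 0.957). It was 1.59 among the 4 hearts with low atrial markers (edgeR adjusted p = 0.203), where the HVCN1 null hearts had the more atrial marker RNA, and -0.03 among the 4 with high atrial markers (edgeR adjusted p = 1.0).

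Scn4b (ENSMUSG00000046480, chromosome 9, 45138395 to 45154152, plus strand) encodes the most abundant of the 3 beta subunits followed. It was at 71.5, 45.6, 31.7 and 70.3 CPM in HVCN1 null hearts and at 56.1, 84.5, 48.5 and 92.4 CPM in WT hearts. The groups overlapped, with means of 54.8 ± 19.5 and 70.4 ± 21.4 CPM (SD, n = 4 and 4; two-sided exact permutation p = 0.314) and a log2 fold change of -0.36 ± 0.28 (SE, edgeR adjusted p = 0.762). The hearts split along the atrial markers, in the opposite direction. Hearts 1, 4, 6 and 8, with low atrial markers, had 70.3 to 92.4 CPM, and hearts 2, 3, 5 and 7 had 31.7 to 56.1 CPM, without overlap. The split was drawn after the data were seen, and the share of all tested genes that it separates was not counted. The log2 fold change was -0.44 among the 4 hearts with high atrial markers (edgeR adjusted p = 0.969), -0.30 among the 4 with low ones (edgeR adjusted p = 0.465), and -0.19 with the atrial score as a covariate (edgeR adjusted p = 0.769). It was -0.17 without HVCN1 null heart 3 and -0.20 without WT heart 8.

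Scn2b and Scn3b, the other beta subunit genes, were near the limit of what this depth could measure. Scn2b (ENSMUSG00000070304, chromosome 9, 45117782 to 45130070, plus strand) lies just upstream of Scn4b on the same strand and gave 12 to 48 counts per heart. Its level was 1.44, 0.963, 0.988 and 0.452 CPM in HVCN1 null hearts and 0.506, 0.556, 0.767 and 0.405 CPM in WT hearts. HVCN1 null hearts 1 to 3 were above all WT hearts, and heart 4 was below 3 of them. The means were 0.961 ± 0.404 and 0.559 ± 0.152 CPM (SD, n = 4 and 4; two-sided exact permutation p = 0.114), and the log2 fold change of 0.77 ± 0.36 did not pass (SE, edgeR adjusted p = 0.485).

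Scn3b (ENSMUSG00000049281, chromosome 9, 40269217 to 40291618, plus strand) gave 16 to 46 counts per heart. It was at 1.32, 0.936, 0.836 and 0.452 CPM in HVCN1 null hearts and at 1.16, 1.02, 1.11 and 1.18 CPM in WT hearts. The WT hearts lay close together and the HVCN1 null hearts reached from below them to above them. The means were 0.886 ± 0.357 and 1.12 ± 0.0727 CPM (SD, n = 4 and 4; two-sided exact permutation p = 0.257), with a log2 fold change of -0.34 ± 0.30 (SE, edgeR adjusted p = 0.818), which was -0.11 without HVCN1 null heart 4 and -0.60 without HVCN1 null heart 1. HVCN1 null heart 4 had the lowest level of the group for both Scn2b and Scn3b, each at 16 counts.

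Gja1 (ENSMUSG00000050953, chromosome 10, 56377330 to 56402513, plus strand), the connexin of ventricular muscle, was at 466, 472, 418 and 498 CPM in HVCN1 null hearts. In WT hearts it was at 330, 405, 410 and 404 CPM. All HVCN1 null hearts were above the highest WT heart, as for 3.60% of all tested genes, but HVCN1 null heart 3 and WT heart 7 were only narrowly apart. The means were 464 ± 33.4 and 387 ± 38.0 CPM (SD, n = 4 and 4; two-sided exact permutation p = 0.0286), a difference of 19.7% of the WT mean. The log2 fold change of 0.26 ± 0.11 did not pass the correction over all genes (SE, edgeR's Benjamini-Hochberg adjusted p = 0.405).

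The separation of Gja1 depended on the scaling of the libraries. With library sizes not scaled the groups overlapped, the difference in means was 87.4 CPM and the two-sided exact permutation p was 0.0571. WT heart 5 was far below the other WT hearts, and leaving it out gave a log2 fold change of 0.20. The value was alike on both sides of the atrial split, 0.26 among the hearts with high and 0.27 among those with low atrial markers.

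The windows of Gja1 and Gja5 are shown for the connexin whose groups were apart and for the one that varied most between hearts. That of Gja1 (RefSeq, GRCm38.p6, chr10:56377050-56377349, plus strand) has its 1 AP-1 site (TGAGTCA) in capitals, a motif that 5.20% of the 32851 windows held. It also held 1 E-box and 1 GATA site. That of Gja5 (RefSeq, GRCm38.p6, chr3:97032152-97032451, plus strand) has its 1 NKX2 core (AAGTGG) in capitals, a motif in 16.9% of the windows, and it held 1 E-box. The Gja5 window lies inside the GENCODE gene, which begins further upstream, at base 96904693.
Gja1: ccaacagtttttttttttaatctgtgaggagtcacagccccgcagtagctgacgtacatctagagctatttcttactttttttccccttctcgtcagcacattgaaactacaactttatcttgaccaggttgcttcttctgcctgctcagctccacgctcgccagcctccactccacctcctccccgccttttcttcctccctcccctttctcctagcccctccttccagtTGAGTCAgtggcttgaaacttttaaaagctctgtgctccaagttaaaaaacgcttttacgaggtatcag
Gja5: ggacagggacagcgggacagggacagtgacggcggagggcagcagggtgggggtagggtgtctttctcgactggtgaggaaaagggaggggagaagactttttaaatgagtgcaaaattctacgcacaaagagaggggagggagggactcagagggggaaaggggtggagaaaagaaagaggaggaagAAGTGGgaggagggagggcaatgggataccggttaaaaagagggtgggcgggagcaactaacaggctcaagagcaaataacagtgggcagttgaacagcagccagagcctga
The T-box core, present in 13.7% of all windows, was in neither. RefSeq windows were found for 6 of the 8 genes, and the T-box core was in 0 of the 6. These matches describe the letters and say nothing of binding.

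Gja5 (ENSMUSG00000057123, chromosome 3, 96904693 to 97077416, plus strand), the atrial and conduction system connexin, varied more between hearts than any other of the 8 genes. It was at 8.92, 30.1, 33.4 and 12.8 CPM in HVCN1 null hearts and at 28.7, 6.55, 55.6 and 5.91 CPM in WT hearts. Hearts 2, 3, 5 and 7 had 28.7 to 55.6 CPM and hearts 1, 4, 6 and 8 had 5.91 to 12.8 CPM, so the hearts split as they did for the atrial markers. What share of all tested genes splits the hearts in this way was not counted. The highest heart was 9.41 times the lowest, a spread above that of 97.7% of the 14740 tested genes with counts in every heart, whose median was 1.54 times.

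By genotype, Gja5 had means of 21.3 ± 12.2 CPM in HVCN1 null and 24.2 ± 23.5 CPM in WT hearts (SD, n = 4 and 4; two-sided exact permutation p = 1.0). The log2 fold change of -0.19 ± 0.67 (SE, edgeR adjusted p = 0.970) leaves changes of either sign and of more than 1 on the log2 scale within 2 SE. Its direction was not stable. It was 0.82 among the 4 hearts with low atrial markers (edgeR adjusted p = 0.252), where summed atrial markers were at 515 and 538 CPM in the HVCN1 null hearts and at 306 and 297 CPM in the WT hearts. It was -0.42 among the 4 with high atrial markers (edgeR adjusted p = 1.0) and 0.62 without WT heart 7.

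Gja5 counts carry 2 further limits. Its exons overlap those of Gpr89 on the opposite strand over 165 bases, and the strand setting of the counting is not given in the sources used here. A stretch of 856 bases of its longest transcript, 23.3% of the length, matches transcripts of Zfp697 at 99.4% identity, so reads from there could be split between the genes. Zfp697 was at 9.84 to 15.0 CPM in HVCN1 null and 10.4 to 13.1 CPM in WT hearts, with none of the spread of Gja5.

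**Figure D2:**
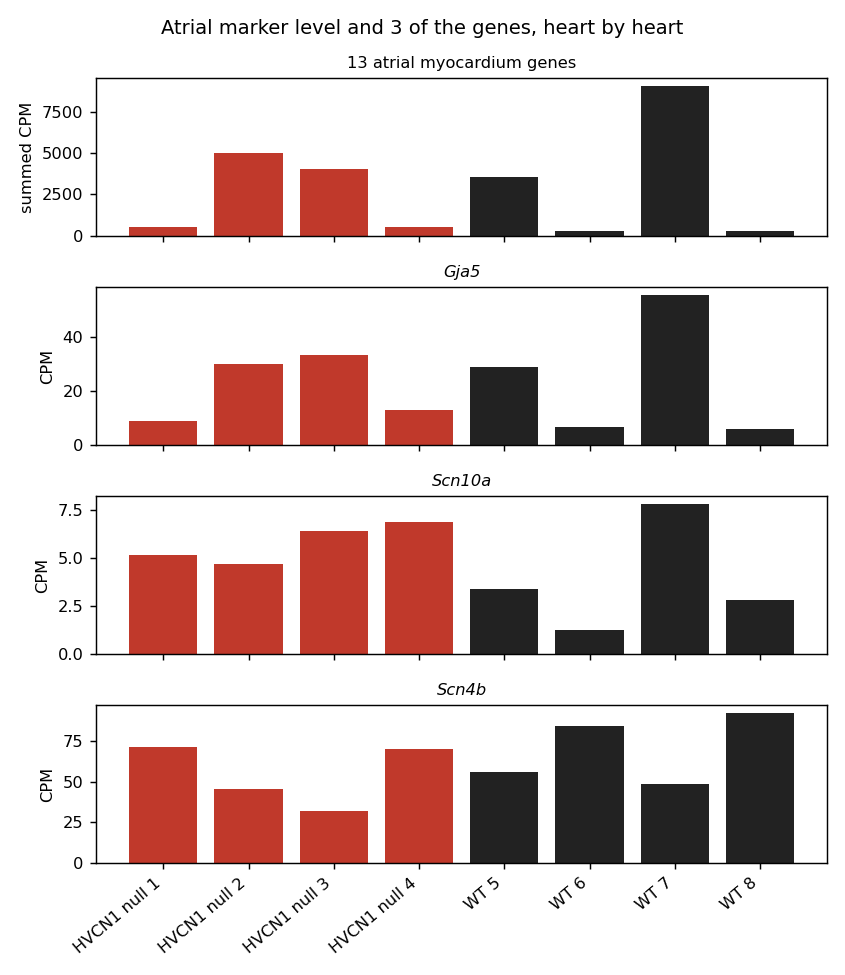
Summed CPM of 13 atrial marker genes (top) and CPM of Gja5, Scn10a and Scn4b in each heart, with bars from 0 on linear axes, HVCN1 null in red and WT in black. Gja5 is high in the 4 hearts with high atrial markers (2, 3, 5 and 7, 28.7 to 55.6 CPM), Scn4b is low in the same hearts (31.7 to 56.1 CPM), and Scn10a is highest in WT 7 (7.80 CPM) but not low in HVCN1 null 1 and 4.

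Gjc1 (ENSMUSG00000034520, chromosome 11, 102799579 to 102819700, minus strand), the nodal connexin, was at 21.1, 19.1, 18.1 and 15.2 CPM in HVCN1 null hearts and at 17.3, 14.8, 15.2 and 15.8 CPM in WT hearts. HVCN1 null hearts 1 to 3 were above all WT hearts and heart 4 was among them. The means were 18.4 ± 2.45 and 15.8 ± 1.10 CPM (SD, n = 4 and 4; two-sided exact permutation p = 0.0857), and the log2 fold change of 0.22 ± 0.11 did not pass (SE, edgeR adjusted p = 0.516). Its highest heart was 1.43 times its lowest, a spread above that of 37.6% of tested genes, and it did not follow the atrial markers. Hearts 2, 3, 5 and 7 had 15.2 to 19.1 CPM, and hearts 1, 4, 6 and 8 had 14.8 to 21.1 CPM.

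**Figure D3:**
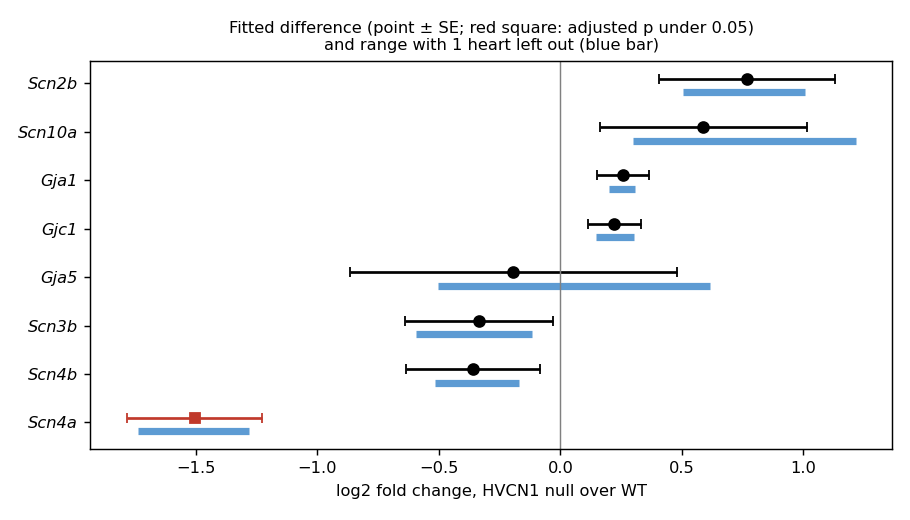
Log2 fold change (HVCN1 null over WT) of the 8 genes from the fit over all tested genes, drawn as points with the SE, with the range obtained when each of the 8 hearts was left out in turn as a blue bar. Scn4a (red square, -1.51) is the 1 gene past an adjusted p of 0.05, and the left-out range of Gja5 (-0.51 to 0.62) is the only one that crosses 0.

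Set against exon length, the 8 genes differed in level widely. Gja1 was the highest in both groups, at 45.2 ± 3.26 CPM per kb of exon in HVCN1 null and 37.8 ± 3.71 in WT hearts (SD, n = 4 and 4). Scn4b came next, at 11.0 ± 3.91 and 14.1 ± 4.29 CPM per kb. Their ranges over hearts did not overlap each other or those of the genes that followed.

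In WT hearts Scn4a stood next at 6.10 ± 2.11 CPM per kb, ahead of Gja5 at 4.21 ± 4.08 and Gjc1 at 3.15 ± 0.220, and each of these neighbours overlapped the next. In HVCN1 null hearts Scn4a stood at 2.14 ± 0.726 CPM per kb, behind Gja5 at 3.71 ± 2.13 and Gjc1 at 3.68 ± 0.490, with overlap again between neighbours. Scn10a followed at 0.722 ± 0.129 CPM per kb in HVCN1 null and 0.477 ± 0.353 in WT hearts, where its range overlapped that of Scn3b. Scn2b and Scn3b were lowest, at 0.206 ± 0.0868 and 0.162 ± 0.0654 CPM per kb in HVCN1 null hearts, where they overlapped. In WT hearts Scn3b was above Scn2b, at 0.205 ± 0.0133 against 0.120 ± 0.0328 CPM per kb, without overlap.

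Within the connexin family of 20 genes, Gja1 made up 65.5% to 76.3% of the summed CPM per kb in HVCN1 null and 61.1% to 74.4% in WT hearts. Gja5 made up 2.47% to 9.33% and 1.94% to 14.9%, and Gjc1 4.78% to 6.74% and 4.68% to 6.56%. The remainder was mostly Gja4 (connexin 37, known from endothelium), at 8.59% to 14.6% over all 8 hearts, and Gja3, at 4.94% to 7.02%. In WT heart 7, with the highest atrial markers, Gja5 exceeded Gja4. Among the 3 beta subunits Scn4b made up 94.6% to 98.7% of the summed CPM per kb in every heart.

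**Figure D4:**
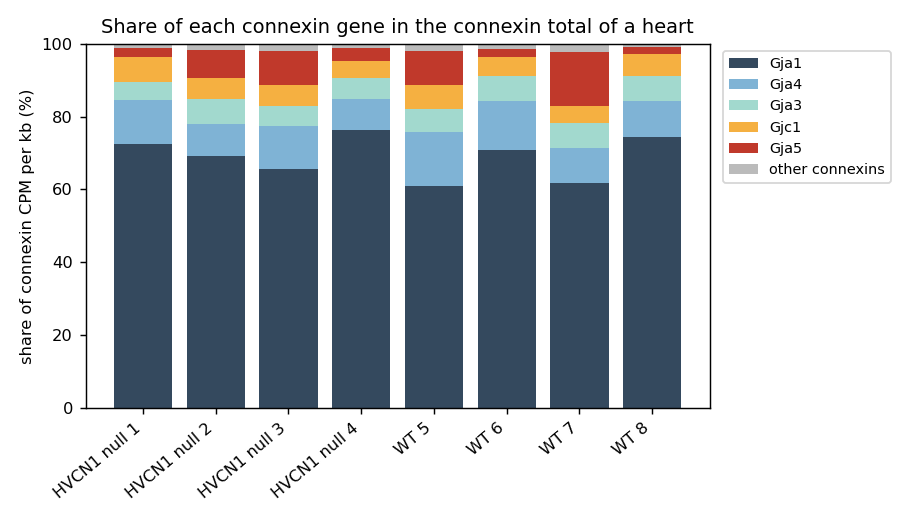
Share of each connexin gene in the summed CPM per kb of 20 connexin genes in each heart, as stacked bars from 0 to 100%. Gja1 takes 61.1% to 76.3% in every heart, and the Gja5 share is widest in WT 7 (14.9%) and narrow in hearts 1, 4, 6 and 8.

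Ratios within a heart do not depend on library scaling, and 5 were compared between genotypes. The ratio of Scn10a to Scn4a, each per kb, was 0.355, 0.189, 0.573 and 0.383 in HVCN1 null hearts and 0.108, 0.0225, 0.199 and 0.0406 in WT hearts. The groups overlapped only by HVCN1 null heart 2 and WT heart 7. The log2 difference was 2.39, with a two-sided exact permutation p of 0.0571 and 0.286 after Benjamini-Hochberg adjustment over the 5 ratios (n = 4 and 4).

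The ratio of Scn2b to Scn4b was 0.0211 ± 0.0109 in HVCN1 null and 0.00958 ± 0.00531 in WT hearts (SD, n = 4 and 4; log2 difference 1.09, exact permutation p = 0.171, adjusted p = 0.429). The other 3 ratios differed by -0.05 to -0.04 on the log2 scale, with an adjusted exact permutation p of 0.943 for each. These were Scn3b to Scn4b, Gjc1 to Gja1 and Gja5 to Gja1, the last at 0.0841 ± 0.0524 in HVCN1 null and 0.113 ± 0.105 in WT hearts.

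The rest of both families gave no call by edgeR, DESeq2 or limma's voom, and 0 genes stood at an unadjusted edgeR p under 0.05. Of 9 other voltage-gated sodium channel genes, 5 had enough counts to be tested, with log2 fold changes of -0.58 to 0.25, and 4 were under 0.3 CPM in every heart. Scn7a, a sodium-sensing relative known from glia, was at 30.6 ± 8.37 CPM in HVCN1 null and 27.4 ± 4.07 CPM in WT hearts (SD, n = 4 and 4; edgeR adjusted p = 0.866). Of 17 other connexins, 4 were tested and 12 were under 0.3 CPM in every heart. Gja3 and Gja4 were at 10.9 and 11.1 CPM in HVCN1 null and 11.3 and 11.3 CPM in WT hearts, with log2 fold changes of -0.05 and -0.02. Gjc3, known from glia, was at 0.717 ± 0.112 CPM in HVCN1 null and 0.474 ± 0.177 CPM in WT hearts (log2 fold change 0.59, edgeR adjusted p = 0.559).

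Sodium channels are held at the intercalated disc and the lateral membrane by ankyrins, spectrins, syntrophins and intracellular fibroblast growth factors. Of 22 such partner genes, all tested, 10 were higher and 12 lower in HVCN1 null hearts, and 1 passed, beside 1.14% of all genes tested. This was Sptbn4, the betaIV spectrin that links ankyrin-bound channels to the cytoskeleton. It was at 2.40, 2.59, 3.19 and 2.26 CPM in HVCN1 null hearts and at 1.21, 0.896, 1.11 and 1.05 CPM in WT hearts. All HVCN1 null hearts were thus above all WT hearts, as for 3.60% of all tested genes. The level was low, with 29 to 97 counts per heart, 341 in all HVCN1 null and 150 in all WT hearts. The means were 2.61 ± 0.410 and 1.07 ± 0.133 CPM (SD), and the log2 fold change was 1.28 ± 0.20 (SE, edgeR adjusted p = 0.0120, n = 4 and 4).

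Without WT heart 6 the adjusted p of Sptbn4 was 0.0539. The log2 fold change was 1.30 among the 4 hearts with high and 1.28 among the 4 with low atrial markers, where 2 against 2 hearts gave edgeR adjusted p-values of 0.419 and 0.209. Its exons share 134 bases with Gm20479 on the same strand and 243 bases with Gm44924 on the opposite strand. Markers of neurons and glia, cells in which betaIV spectrin is also known, summed to 34.5 to 45.0 CPM in HVCN1 null and 26.7 to 36.7 CPM in WT hearts. Of their 17 genes 11 were tested, 7 were higher, 0 passed edgeR's test and 5 stood at an unadjusted p under 0.05. DESeq2 called Sox10 alone. The glial factor Sox10 was at 4.04 ± 0.684 against 2.12 ± 0.746 CPM (edgeR adjusted p = 0.158), and Th, Chat, Slc18a3 and Nefl were under 0.3 CPM in every heart. Their part in the Sptbn4 difference was not tested.

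The other partners named by their level or their p did not pass. Fgf13, the main intracellular fibroblast growth factor of mouse ventricle, was at 43.2 ± 4.28 CPM in HVCN1 null and 35.8 ± 4.97 CPM in WT hearts (log2 fold change 0.27, edgeR adjusted p = 0.412). The ubiquitin ligase gene Nedd4 was at 442 ± 43.9 and 447 ± 48.0 CPM (log2 fold change -0.02, edgeR adjusted p = 0.987). Fgf12, chosen after its values were seen, split the hearts as Gja5 did, at 12.9 to 33.3 CPM in hearts 2, 3, 5 and 7 and 0.155 to 1.67 CPM in hearts 1, 4, 6 and 8.

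**Figure D5:**
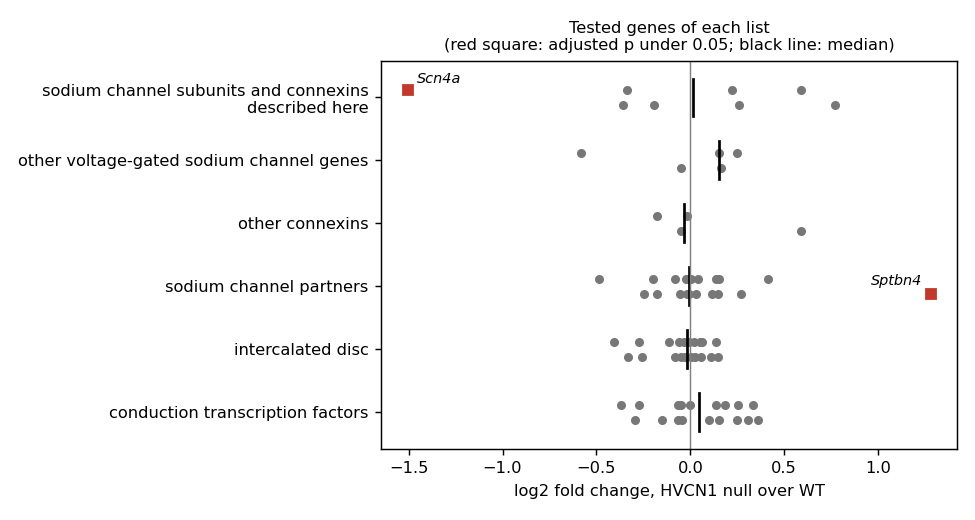
Log2 fold change (HVCN1 null over WT) of each tested gene in the 8 genes described and in 5 related lists; red squares passed an adjusted p of 0.05 and black lines are list medians. Scn4a (-1.51) and Sptbn4 (1.28) stand outside, and the intercalated disc genes lie between -0.41 and 0.15.

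Connexin 43 gap junctions sit among the adhesion proteins of the intercalated disc. Of 20 disc genes, all tested, 9 were higher and 11 lower in HVCN1 null hearts, 0 passed edgeR's test, 1 stood at an unadjusted p under 0.05, and the median log2 fold change was -0.02. The desmoplakin gene Dsp was at 1365 ± 148 and 1364 ± 292 CPM in HVCN1 null and WT hearts (SD, n = 4 and 4; edgeR adjusted p = 0.999). The gene at the unadjusted p was Xirp1, which encodes an actin-binding disc protein, at 203, 244, 191 and 209 CPM in HVCN1 null hearts and at 215, 324, 237 and 293 CPM in WT hearts (log2 fold change -0.33, edgeR adjusted p = 0.421). Its relative Xirp2 was at 590 ± 141 against 782 ± 205 CPM (log2 fold change -0.41, edgeR adjusted p = 0.565).

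Transcription factors that pattern the conduction system control several of these genes in mouse, with Tbx3 known to repress and Tbx5 and Nkx2-5 to activate Gja5. Of 19 such factors 18 were tested, 9 were higher and 9 lower, 0 passed edgeR's test and 2 stood at an unadjusted p under 0.05, with a median log2 fold change of 0.05. Tbx3 was at 30.4, 22.3, 20.7 and 16.9 CPM in HVCN1 null hearts and at 18.1, 17.1, 17.4 and 17.7 CPM in WT hearts (log2 fold change 0.36, edgeR adjusted p = 0.412). HVCN1 null hearts 1 to 3 were above the WT hearts and heart 4 was below them. DESeq2 and limma's voom called 0 of these factors and 0 of the disc genes. Gata6 was at 63.4 ± 12.1 against 50.2 ± 6.40 CPM (log2 fold change 0.34, edgeR adjusted p = 0.417), and Nkx2-5 had a log2 fold change of 0.25 (edgeR adjusted p = 0.571).

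Markers of the other cell types of the heart were read for the connexins. Endothelial markers summed to 1234 to 1484 CPM in HVCN1 null and 1329 to 1581 CPM in WT hearts, and of 14 tested 0 passed edgeR's test and 2 stood at an unadjusted p under 0.05. Fibroblast markers summed to 985 to 1630 and 1060 to 1727 CPM, and conduction system markers to 172 to 381 and 198 to 486 CPM. In these lists 0 passed edgeR's test, and 0 and 2 stood at an unadjusted p under 0.05. Igfbp5 alone gave 103 to 262 and 143 to 369 CPM of the conduction system sums. Among the 10 tested conduction system markers, 7 had a positive and 3 a negative log2 fold change (median 0.34). Both genes at the unadjusted p were higher in HVCN1 null hearts. They were Tbx3 and Ntm, the latter at 2.68 ± 0.417 against 1.64 ± 0.383 CPM (SD, edgeR adjusted p = 0.222). Summed smooth muscle markers were apart between the groups, at 534 to 834 CPM in HVCN1 null and 405 to 493 CPM in WT hearts. Without Acta2 the sums overlapped, at 346 to 477 CPM in HVCN1 null and 317 to 368 CPM in WT hearts. Acta2 and Smtn were apart between the groups, and Myh11, Tagln, Cnn1 and Lmod1 overlapped, with two-sided exact permutation p-values of 0.371 to 0.771. All 6 had a positive log2 fold change and Acta2, smooth muscle actin, passed, at 261 ± 101 against 105 ± 18.9 CPM (SD, n = 4 and 4; log2 fold change 1.32 ± 0.26 SE, edgeR adjusted p = 0.0466). DESeq2 called Acta2 (DESeq2 adjusted p = 1.02e-05) and Smtn. Acta2 lost its call without HVCN1 null heart 1 or 3 or any 1 of the 4 WT hearts (edgeR adjusted p = 0.0628 to 0.149), with library sizes not scaled (0.0577), with the stricter filter (0.0512) and by limma's voom (0.0518). The part of these markers in Gja1 and Gjc1, which vascular smooth muscle also expresses, was not tested.

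The genes whose pattern over the 8 hearts was most like that of each gene were sought among 12344 protein-coding genes with a mean of at least 1 CPM, by Pearson's r of log2 CPM. The values are a description over 8 hearts that differ in atrial markers. For Gja5 they were Rab3b (r = 0.996), Ptgfr (0.992) and Rxfp1 (0.988), which had log2 fold changes of -0.42, -0.44 and -0.44 between genotypes. For Scn4a they were Rbm18 (0.974), Tspyl4 (0.968) and Synpo2 (0.968). None of the 3 passed the test between genotypes, with edgeR adjusted p-values of 0.504, 0.202 and 0.127, and Synpo2 was at 117 CPM in HVCN1 null and 163 CPM in WT hearts.

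For Gja1 the likest genes were Tmtc4 (r = 0.973), Krba1 (0.971) and Hsd17b7 (0.964), and for Gjc1 Taf1d (0.989), Plekhg2 (0.964) and Ascc2 (0.964). For Scn10a they were Ciz1 (0.928), Foxo6 (0.923) and Plxnb3 (0.918), the lowest of the 8 sets of values. For the beta subunits they were Orc3 (0.977), Atg12 (0.959) and Cep76 (0.947) with Scn4b, Wt1 (0.967), Abca3 (0.962) and Stx1a (0.960) with Scn2b, and Phf19 (0.977), Lrp2bp (0.975) and Mertk (0.975) with Scn3b. No gene was in more than 1 of these sets.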

How the data were processed

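Per the paper's methods, libraries of polyadenylated RNA were sequenced from both ends, and the authors used STAR for alignment and featureCounts to count reads on Ensembl genes (versions and strand setting not given in the sources used here). The deposited table holds those raw counts, not normalized. The submitters' processing notes name mm10 and GRCm38, and the identifiers are mouse identifiers, although the paper's text names a human build. Of 39056 genes, 38872 were matched to GENCODE M21 (GRCm38), from which symbols, positions and exon lengths were taken.

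CPM on TMM-scaled library sizes and log2 CPM (with a prior count of 2) come from edgeR 4.0.16, run in R 4.3.3. Genes kept by filterByExpr (14796) were tested by edgeR's quasi-likelihood test over all 8 hearts, with Benjamini-Hochberg adjustment over all of them and a call at an adjusted p under 0.05. Single values were tested by exact permutation, two-sided, of all 70 ways to assign the hearts, where p cannot fall under 0.0286, or under 0.0571 with 1 heart left out. The exact permutation p-values of single genes were not adjusted over the genes. The labels do not say how the animals were bred. The p-values set the difference between the groups against the spread between these hearts only. Total counts are 25851255 to 38874640 per heart. Alternatives used limma 3.58.1 and DESeq2 1.42.0. Near-identical transcripts were sought with BLAST 2.17.0. Other steps and plots used pandas 2.3.3, numpy 2.4.6, scipy 1.17.1 and matplotlib 3.10.9 under Python 3.11.15. Scripts were tested on simulated counts.

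The 8 genes and the lists were chosen with earlier results of these data known. Named beside the 8 genes are listed genes that passed the test, up to 3 per list by level or by p, marker genes that show a list's level, the 3 genes most like each of the 8, and Hvcn1. Fgf12 was picked with its values in view. Some listed genes are counted but not reported here by name. RT-PCR was not analysed here.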

Additional observations from a re-analysis of the deposited data

Results flagged for a closer look

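Over 26 groups of 4 hearts, 2 had a heart far from the others by Dixon's test at the 95% level, where chance gives about 1 in 20. Gja1 in WT heart 5, at 330 CPM, was far below the other WT hearts, with a gap of 0.92 of the group's range. The ratio of Gjc1 to Gja1 per kb in the same heart, at 0.107, was far above those of the other WT hearts, with a gap of 0.844 of the range, and the 2 values share the Gja1 count.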

How the results depend on the processing

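The alternatives were RLE scaling, library sizes not scaled, 2 other filters, DESeq2, limma's voom, an atrial score as a covariate and each heart left out. The 4 hearts with high and the 4 with low atrial markers, each 2 against 2, were added after seeing the data. DESeq2 called 466 genes against 169, the high and low atrial subsets 24 and 71, and fits with 1 heart left out 71 to 152. Of the 8 genes, 0 were called in the high atrial subset and 0 to 1 with a heart left out. Scn4a was at -0.98 in the high atrial subset (log2 fold change, edgeR adjusted p = 0.81) and -1.74 to -1.28 with a heart left out, and its difference in mean CPM was then -33.0 to -21.8 (exact permutation p = 0.0571, the smallest for 3 against 4). For Gja1 that difference was 57.2 to 91.4, and 87.4 with library sizes not scaled. Directions turned for Scn10a in the high atrial subset (-0.029) and for Gja5 with voom (0.15), in the low atrial subset (0.82), on log2 CPM in place of CPM (0.22) and with a heart left out (log2 fold change -0.51 to 0.62, difference in mean CPM -9.00 to 7.57). The log2 ratio difference turned with a heart left out for Gja5 to Gja1 (-0.53 to 0.54), Gjc1 to Gja1 (-0.11 to 0.076) and Scn3b to Scn4b (-0.29 to 0.39), and for the last as a plain ratio (0.000755). The causes were not tested. Sptbn4 kept its direction in all 17 alternatives, as did Scn4a, Gja1, Gjc1, Scn2b, Scn3b and Scn4b wherever they were tested (Scn2b was removed by the filter on CPM above 1 in at least 4 hearts). Acta2 lost its call in 11 of 17. At 12 to 48 counts per heart, the depth limits Scn2b and Scn3b. No paired analysis was possible because no litter or pairing of the hearts is given.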
